A study of Gallus gallus with 15 samples.

Results

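XPOT, OSBPL2 and ZDHHC7 are 3 of the 24356 genes in a count table of the chick hypothalamus, chosen from these same data because each was lower in embryos incubated under green light than under white light. RNA was measured by bulk MARS-Seq, which barcodes each sample during reverse transcription and reads the 3′ ends of transcripts, in 15 hypothalamic samples of broiler chicks taken on the day of hatch. The groups were Green (green monochromatic light throughout incubation, 3 samples), G3D (green light in the last 3 days only, 4 samples), White (white polychromatic light throughout, 4 samples) and Control (incubation in the dark, 4 samples). The titles name male chicks in Green, White and Control and give no sex for G3D. The study's figure legend describes the profiles of all 4 groups as those of male chicks. Each sample was RNA from 1 hemisphere of the whole hypothalamus, so that fewer cells of a type and less RNA per cell cannot be told apart. The regimes were screened from each other during incubation, and the labels give neither tray nor trial, so that light and tray cannot be told apart.

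The 3 genes act at different steps of cell housekeeping. XPOT encodes exportin-t, a carrier of the importin-beta family that leaves the nucleus with the GTPase Ran and mature transfer RNA, which then serves protein synthesis in the cytoplasm. OSBPL2 encodes an oxysterol-binding protein-related protein, a lipid transfer protein that in human cells binds cholesterol and phosphoinositides and moves cholesterol between membranes. ZDHHC7 encodes a Golgi enzyme of the DHHC family, which attaches palmitate to cysteines of proteins and so anchors them to membranes, among them steroid receptors in human cells.

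All 3 genes were counted in every library and passed the expression filter that left 10475 genes. Total counts per library were between 5898618 and 8205918 in Green, 4196251 and 7979031 in G3D, 3944530 and 8077895 in White, and 6066732 and 9501555 in Control. XPOT had between 20 and 184 counts per library, OSBPL2 between 36 and 275, and ZDHHC7 between 6 and 102. Taken over all genes, libraries within groups were further apart than counting alone gives. In 21 pairs the chi-square divided by its degrees of freedom was 11.7 at the lowest and 27.6 at the highest. Levels below are counts relative to library size after TMM scaling (CPM), and differences are log2 fold changes from edgeR's quasi-likelihood fit on all 15 libraries, with padj adjusted over the 10475 genes. These tests are not independent of how the genes were chosen. The White and Green libraries entered the choice, and a gene has a symbol here only because the study listed it as different from Control on these samples, all 3 for G3D, and OSBPL2 and ZDHHC7 also for Green.

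XPOT (ENSGALG00000009835) was measured at 7.44, 6.95 and 7.17 CPM in Green. In G3D it was at 7.11, 5.98, 4.55 and 6.88 CPM. In White it was at 15.9, 18.7, 22.4 and 19.9 CPM, against 19.8, 11.4, 11.7 and 12.9 CPM in Control. The exportin-t transcript was thus low in every library of both green regimes, while the White and Control libraries overlapped through Control replicate 4, the highest of that group. Group means were 7.19 ± 0.248 CPM in Green (SD, n = 3), 6.13 ± 1.16 CPM in G3D (SD, n = 4), 19.2 ± 2.70 CPM in White (SD, n = 4) and 13.9 ± 3.99 CPM in Control (SD, n = 4).

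OSBPL2 (ENSGALG00000005195) was at 9.71, 11.7 and 6.83 CPM in Green. In G3D it was at 9.04, 8.65, 8.19 and 9.94 CPM. In White it was at 14.7, 37.0, 22.2 and 33.1 CPM, against 20.3, 16.9, 18.7 and 22.5 CPM in Control. White was the most uneven group for this sterol carrier, with replicate 1 below every Control library and replicates 3 and 7 above every Control library. Group means were 9.40 ± 2.44 CPM in Green (SD, n = 3), 8.95 ± 0.743 CPM in G3D (SD, n = 4), 26.8 ± 10.2 CPM in White (SD, n = 4) and 19.6 ± 2.35 CPM in Control (SD, n = 4).

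ZDHHC7 (ENSGALG00000042522) was at 1.26, 1.53 and 1.54 CPM in Green, which is between 9 and 11 counts per library. In G3D it was at 2.37, 3.05, 1.36 and 2.29 CPM. In White it was at 8.72, 10.4, 8.04 and 8.07 CPM, against 3.56, 4.18, 6.36 and 15.8 CPM in Control. The Control libraries of this palmitoyltransferase lay on both sides of White, with replicates 4, 5 and 6 below every White library and replicate 8 above every White library. Replicate 8 held 102 counts, with an exact 95% Poisson interval of 12.9 to 19.2 CPM that covers counting error only, and the interval of replicate 6 was 4.46 to 8.81 CPM. Group means were 1.44 ± 0.157 CPM in Green (SD, n = 3), 2.27 ± 0.693 CPM in G3D (SD, n = 4), 8.80 ± 1.10 CPM in White (SD, n = 4) and 7.48 ± 5.69 CPM in Control (SD, n = 4), and without replicate 8 the Control mean was 4.70 ± 1.47 CPM (SD, n = 3).

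**Figure D1:**
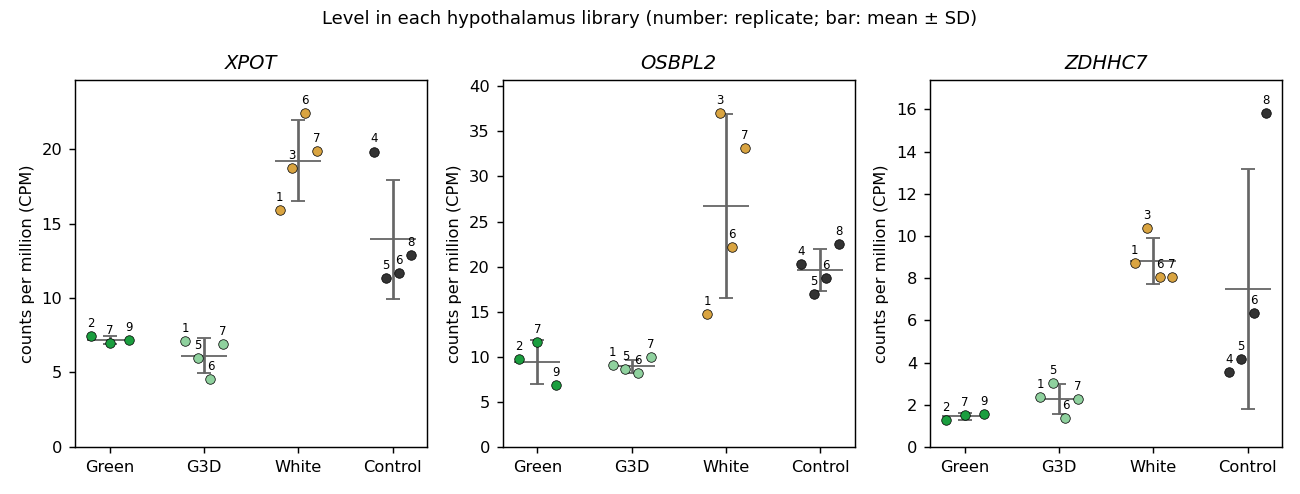
Level of XPOT, OSBPL2 and ZDHHC7 (vertical axes, CPM) in each library of Green, G3D, White and Control, with replicate numbers, group means and SD as bars. The 7 libraries of both green regimes lie below the 8 White and Control libraries for each gene, and the highest ZDHHC7 value is Control replicate 8 at 15.8 CPM.

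Between Green and White, the contrast that chose the genes, the differences are given as a description without a test. XPOT was 2.67-fold lower in Green than in White (log2 fold change -1.42, standard error 0.26), OSBPL2 2.85-fold lower (-1.51, standard error 0.28) and ZDHHC7 6.07-fold lower (-2.60, standard error 0.49). Among the 10475 genes, ordered from the largest decrease, ZDHHC7 stood at position 31, OSBPL2 at 211 and XPOT at 254. No Green library reached the range of White for any of the 3 genes, which held for 5.79% of all genes in this direction. With G3D added to Green and Control added to White, the 7 libraries lay below the 8 for all 3 genes. Of all genes, 0.496% showed this separation in this direction, but they are not a like background. The study had listed each of the 3 as different from Control in G3D, and OSBPL2 and ZDHHC7 also in Green. The highest Green or G3D library and the lowest White or Control library were 7.44 and 11.4 CPM for XPOT, 11.7 and 14.7 CPM for OSBPL2, and 3.05 and 3.56 CPM for ZDHHC7.

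White light was set against darkness to ask whether white raised the genes. The mean of each gene was higher in White than in Control, but none of the 3 differences passed the test. The genes were chosen partly for their high values in these White libraries, so a higher mean there is not independent evidence. The log2 fold change was 0.46 for XPOT (95% interval -0.01 to 0.92, edgeR padj = 0.917), 0.46 for OSBPL2 (-0.05 to 0.96, edgeR padj = 0.939) and 0.25 for ZDHHC7 (-0.55 to 1.06, edgeR padj = 0.980). For XPOT and OSBPL2 these intervals run from about the level of Control to clearly above it, while that of ZDHHC7 takes in values of White on either side of Control. The exact permutation test on log2 CPM, two-sided, gave p = 0.0857 for XPOT, 0.314 for OSBPL2 and 0.343 for ZDHHC7, where 0.0286 is the smallest that 4 against 4 samples allow. Of all genes, 0% were called higher in White and 0% lower (0 genes by edgeR at a padj under 0.05, 569 at an unadjusted p under 0.05, 2 by DESeq2 and 0 by limma-voom). The log2 fold change of ZDHHC7 in White was 0.93 without Control replicate 8 (edgeR padj = 0.974) and 0.02 without Control replicate 4 (edgeR padj = 0.995), and XPOT moved to 0.70 without Control replicate 4 (edgeR padj = 0.501).

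Green light throughout incubation was set against darkness to ask whether green lowered the genes. Every Green library was below every Control library for all 3 genes, as for 4.25% of all genes, yet none passed the adjusted test. All genes are not a like background here, since the Green libraries entered the choice of the 3. The study had also listed OSBPL2 and ZDHHC7 as different from Control in Green, so the values of this comparison are not independent evidence. The log2 fold change was -0.96 for XPOT (95% interval -1.49 to -0.43, edgeR padj = 0.360), -1.05 for OSBPL2 (-1.63 to -0.48, edgeR padj = 0.360) and -2.35 for ZDHHC7 (-3.36 to -1.34, edgeR padj = 0.202). Their unadjusted p from edgeR was 0.00116, 0.00107 and 9.35e-05. The exact permutation test, two-sided, gave p = 0.0571 for each gene, the smallest that 3 against 4 samples allow. ZDHHC7 was among the 9 genes that shared the smallest padj of this comparison, in which 0% of genes were called lower and 0% higher (0 by edgeR at a padj under 0.05, 750 at an unadjusted p under 0.05, 23 by DESeq2 and 0 by limma-voom). Under DESeq2 the padj of ZDHHC7 was 0.00507. The study had listed genes against Control with DESeq2 on these samples, so this value is not separate evidence. In edgeR without the filter on low counts the padj of ZDHHC7 was 0.0455. It ranged from 0.00507 to 0.454 over 6 alternatives that left out no library and had no replicate block. The log2 fold change of ZDHHC7 was -1.68 without Control replicate 8 (edgeR padj = 0.633).

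The G3D libraries were also low for each gene. They took no part in the contrast of Green and White, but each gene has a symbol because the study listed it for G3D. Their low values against these same Control libraries are therefore not independent evidence. Against Control, all 4 G3D libraries lay below all 4 Control libraries for the 3 genes, which held for 4.04% of all genes. The log2 fold change was -1.18 for XPOT (95% interval -1.67 to -0.69, edgeR padj = 0.0633), -1.13 for OSBPL2 (-1.66 to -0.60, edgeR padj = 0.105) and -1.67 for ZDHHC7 (-2.54 to -0.80, edgeR padj = 0.128). None was among the 7 genes called lower, 0.0668% of those tested, and the exact permutation test, two-sided, gave p = 0.0286 for each, the smallest that 4 against 4 samples allow. DESeq2, the tool of the study's own listing and so not separate evidence, gave a padj of 0.00148, 0.00729 and 0.0194. Leaving out replicate 5 of G3D brought the edgeR padj to 0.0357 for XPOT, 0.0479 for OSBPL2 and 0.0478 for ZDHHC7. Of 15 fits that each left out 1 library, it was the only 1 in which any of the 3 genes passed. The highest padj in these fits was 0.211, 0.272 and 0.320. Over all genes, 10 were called in either direction in the main fit, 221 without replicate 5 of G3D and 213 with DESeq2. With limma-voom the padj was 0.102, 0.138 and 0.222. Without Control replicate 8 the log2 fold change of ZDHHC7 was -1.0 (edgeR padj = 0.320).

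Against White, all 3 genes fell in G3D at a padj under 0.05, as did 2.49% of all genes. XPOT was 3.11-fold lower in G3D than in White (log2 fold change -1.64, 95% interval -2.13 to -1.14, edgeR padj = 0.00343), OSBPL2 3.00-fold lower (-1.59, -2.12 to -1.05, edgeR padj = 0.00655) and ZDHHC7 3.79-fold lower (-1.92, -2.80 to -1.04, edgeR padj = 0.0205). No G3D library reached the White range of any of them, as for 5.43% of genes. This comparison shares the White libraries with the one that chose the genes, which were high there. The study had also listed each gene as different from Control in G3D, so neither group is independent of the choice. The calls of XPOT and OSBPL2 held in all 15 fits that each left out 1 library (padj up to 0.0144 and 0.0250), while ZDHHC7 held in 11 and had a padj of 0.0617 without White replicate 3, 0.0575 without White replicate 7, 0.0642 without G3D replicate 1 and 0.0648 without G3D replicate 6.

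The green regimes did not separate from each other. In G3D relative to Green, log2 fold changes were -0.22 for XPOT (95% interval -0.76 to 0.32, edgeR padj = 0.999), -0.08 for OSBPL2 (-0.66 to 0.51, edgeR padj = 0.999) and 0.68 for ZDHHC7 (-0.36 to 1.72, edgeR padj = 0.999). The libraries of both groups overlapped for each gene. Of all genes, 0% were called in either direction (0 by edgeR at a padj under 0.05, 387 at an unadjusted p under 0.05, 2 by DESeq2 and 0 by limma-voom). For ZDHHC7 the interval reaches a level in G3D more than 3 times that in Green, and a count of 6 to 24 per G3D library limits what could be seen.

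**Figure D2:**
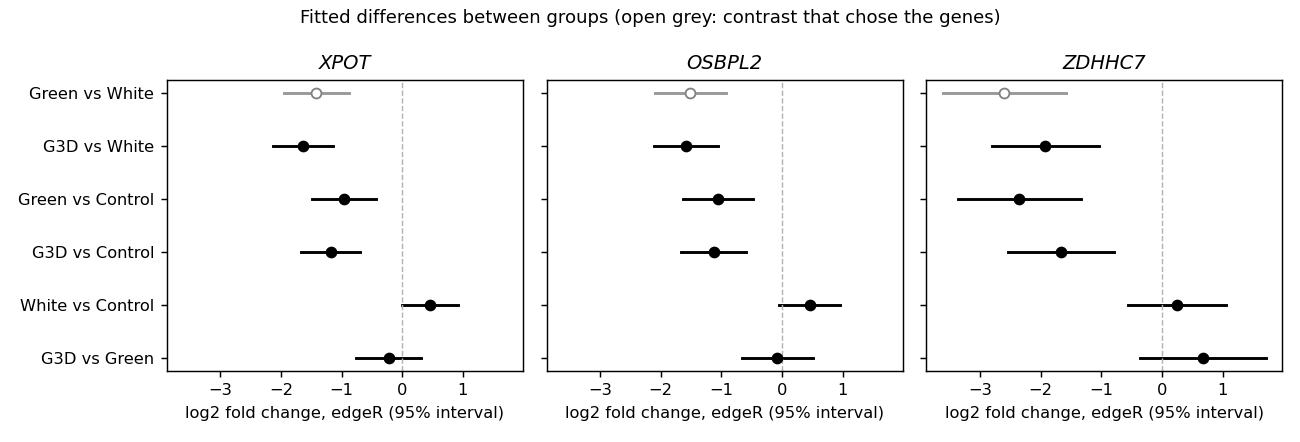
Log2 fold change with its 95% interval (horizontal axes, edgeR) of each gene in 6 comparisons, first-named group over second. The intervals of G3D and Green against Control lie below 0 for all 3 genes, those of White against Control and G3D against Green include 0, and the open grey points are the contrast that chose the genes.

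Each comparison against dark has its own error, and both use the same Control libraries. The position of Control between Green and White puts them on a single scale. On the fitted log2 scale, with Green at 0% and White at 100%, Control lay at 67.6% for XPOT, 69.6% for OSBPL2 and 90.4% for ZDHHC7. By these values the distance from Control down to Green was the longer part for each gene. This position is not independent of the choice, since the study had listed each gene as different from these Control libraries. With group medians of log2 CPM in place of the fit the position was 53.9% for XPOT, 67.6% for OSBPL2 and 70.2% for ZDHHC7. Leaving out each Green, White or Control library in turn gave 51.2% to 73.9% for XPOT, 61.5% to 80.1% for OSBPL2 and 64.5% to 99.1% for ZDHHC7. XPOT came to 51.2%, about midway, without Control replicate 4, and ZDHHC7 to 64.5% without Control replicate 8.

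Whether Control lay nearer to White than to Green was tested by the midpoint of White and Green against Control, which does not use the difference of Green and White. It is still not independent of the choice, because each gene has a symbol only through a listed difference from Control. A value below 0 places Control nearer to White. It was -0.25 on the log2 scale for XPOT (95% interval -0.67 to 0.17, edgeR padj = 0.998), -0.30 for OSBPL2 (-0.75 to 0.16, edgeR padj = 0.998) and -1.05 for ZDHHC7 (-1.79 to -0.31, edgeR padj = 0.998). No gene passed this test, so that the longer distance on the green side is not established for any of the 3. The unadjusted p of ZDHHC7 was 0.00766, where 3.84% of genes had an unadjusted p under 0.05 (402 genes, against 0 at a padj under 0.05, 2 by DESeq2 and 0 by limma-voom), and its value was -0.38 without Control replicate 8. XPOT was at -0.02 without Control replicate 4. Permuting these 11 libraries exactly, over 11550 arrangements with a smallest two-sided p of 0.000173, gave p = 0.599 for XPOT, 0.463 for OSBPL2 and 0.326 for ZDHHC7. The permutation mixed the labels of White, Green and Control, so the gap between Green and White widened its reference values. It therefore cannot decide whether Control lay at the midpoint. Among the 18 genes lower in Green than in White at a padj under 0.05, Control lay between both groups in 18 and nearer to White in 14, which describes genes picked by the same contrast and tests nothing.

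**Figure D3:**
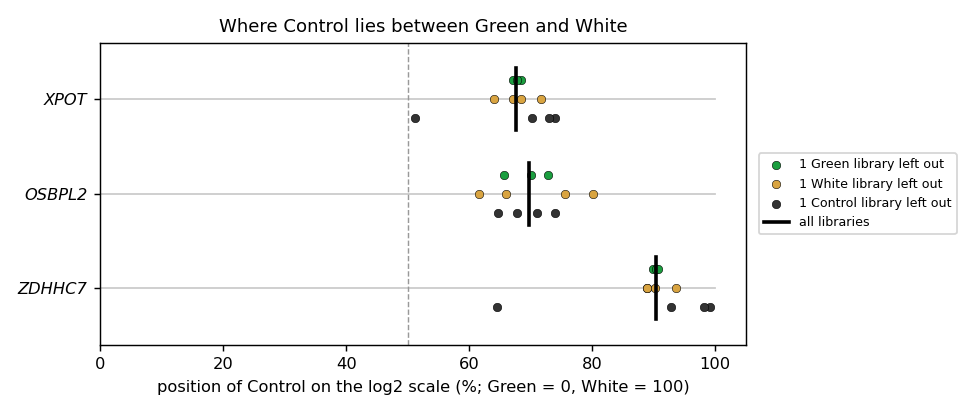
Position of Control between Green (0%) and White (100%) on the fitted log2 scale for each gene (horizontal axis, percent), with all libraries (black line) and with 1 library left out (points, by group). The lines stand at 67.6%, 69.6% and 90.4%, and the Control library that moves XPOT to 51.2% is another than the one that moves ZDHHC7 to 64.5%.

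The genes differed in which groups were uneven. The coefficient of variation of XPOT was 3.46% in Green and 19% in G3D, against 14.1% in White and 28.6% in Control, while counting error alone gives 14.2%, 17.3%, 9.54% and 10.3%. For OSBPL2 it was 25.9% in Green, 8.30% in G3D, 38.1% in White and 12% in Control, where counting error gives 12.9%, 14.0%, 8.87% and 8.36%. For ZDHHC7 it was 10.9% in Green, 30.5% in G3D, 12.5% in White and 76.0% in Control, where counting error gives 31.7%, 29.8%, 14.2% and 15.3%. In 4 of these 12 groups of libraries the spread was below that of counting, namely XPOT in Green, OSBPL2 in G3D, and ZDHHC7 in Green and White. For XPOT and ZDHHC7 a single library, not the same for both, carried much of the spread of Control. Without replicate 4 the coefficient of variation of XPOT there was 6.67%, and without replicate 8 that of ZDHHC7 was 31.3% (n = 3 each). The latter was still above the 15.3% that counting error gives for ZDHHC7 with all Control libraries.

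Relatives of the 3 genes were followed only where an identifier had a symbol. XPOT was the sole member of the 22 exportins, importins and Ran factors with a symbol, OSBPL2 the sole member of 14 oxysterol-binding proteins and their membrane receptors, and 0 of the 41 symbols searched for aminoacyl-tRNA synthetases, which charge transfer RNA, had one. Every gene with a symbol had been listed by the study as different from Control on these samples, so none is independent evidence. PSAT1, a serine synthesis enzyme and the sole identified gene of 21 in the ATF4 stress response, was at 16.9 ± 4.43 CPM in Green (SD, n = 3), 13.9 ± 7.12 CPM in G3D (SD, n = 4), 20.1 ± 4.52 CPM in White (SD, n = 4) and 24.2 ± 8.19 CPM in Control (SD, n = 4). Its log2 fold change in G3D against Control was -0.78 (edgeR padj = 0.236).

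Of 30 genes of palmitoylation 4 were identified, ZDHHC7 among them. At a padj under 0.05, 2 of the 4 fell in G3D against White, ZDHHC7 and ZDHHC17, beside 2.49% of all genes, and ZDHHC7 was itself chosen for its low values against White. Against Control 0 of the 4 passed in G3D, Green or White, where 0.0668%, 0% and 0% of all genes were called lower. Their median log2 fold change in G3D against White was -0.72, beside -0.00 over all genes. All genes are not a like background here, since each of the 4 had been listed by the study as different from Control. ZDHHC17, a Golgi palmitoyltransferase of neurons, was at 17.9 ± 6.10 CPM in G3D (SD, n = 4) and 33.9 ± 7.90 CPM in White (SD, n = 4), a log2 fold change of -0.92 (edgeR padj = 0.0353). It was at 22.2 ± 4.53 CPM in Green (SD, n = 3) and 32.3 ± 6.07 CPM in Control (SD, n = 4). GOLGA7 and GOLGA7B, cofactors of DHHC enzymes, had log2 fold changes of opposite sign in G3D against Control, -0.57 (edgeR padj = 0.154) and 0.35 (edgeR padj = 0.206).

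Of 27 genes of cholesterol synthesis and uptake 5 were identified, and 0 passed the test against Control in G3D, Green or White, comparisons in which neither direction held more than 0.0668% of all genes. In G3D against White, DHCR7, which catalyses the last step to cholesterol, fell (24.9 ± 9.16 CPM in G3D and 45.4 ± 13.1 CPM in White, SD, n = 4 each, log2 fold change -0.87, edgeR padj = 0.0418), as did 2.49% of all genes. SC5D, which acts just before it, was higher in G3D than in White (292 ± 37.3 CPM in G3D and 221 ± 19.9 CPM in White, SD, n = 4 each, log2 fold change 0.41, edgeR padj = 0.0363), as were 1.68% of all genes. White was the low group for SC5D, which was at 293 ± 18.6 CPM in Control (SD, n = 4) and 292 ± 13.7 CPM in Green (SD, n = 3). Its log2 fold change in White against Control was -0.41 (edgeR padj = 0.568). The median of the 5 genes was -0.43 in G3D against White, beside -0.00 over all genes, which had not been picked for a listed difference from Control as these were. In G3D against Control, INSIG1, an endoplasmic reticulum protein that holds back sterol synthesis, had the lowest log2 fold change of the 5, -0.99 (edgeR padj = 0.282), and SC5D the highest, -0.0039 (edgeR padj = 0.990).

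Markers of tissue and cell types were identified in part, each only because the study had listed it as different from Control on these samples. Their calls against Control are thus not independent evidence, and all genes are not a like background for them. For the hypothalamus 2 of 9 were, SST and AGRP, for neurons 2 of 5, SNAP25 and STMN2, and for 7 further types, from astrocytes to red blood cells and pituitary, 0. SST, the peptide somatostatin, was between 968 and 1010 CPM in Green, 1058 and 1373 CPM in G3D, 678 and 1021 CPM in White, and 616 and 844 CPM in Control. It rose in G3D against Control (log2 fold change 0.77, edgeR padj = 0.0249) and against White (0.50, edgeR padj = 0.0339), where 0.0286% and 1.68% of all genes did. AGRP, a peptide of appetite neurons, was between 0.505 and 43.9 CPM in Green, 0.764 and 57.3 CPM in G3D, 0 and 33.3 CPM in White, and 0 and 3.00 CPM in Control. Its log2 fold changes against Control did not pass the test: 4.48 in G3D (edgeR padj = 0.256), 4.27 in Green (edgeR padj = 0.662) and 3.04 in White (edgeR padj = 0.943). SNAP25 and STMN2 did not pass the test in any of the 3 groups against Control, and SNAP25 was between 638 and 770 CPM in Green, 498 and 838 CPM in G3D, 631 and 1168 CPM in White and 704 and 875 CPM in Control. STMN2 was between 2081 and 2815 CPM in Green, 2188 and 3223 CPM in G3D, 1794 and 2796 CPM in White, and 1649 and 2599 CPM in Control. In G3D against Control their log2 fold changes had opposite signs, -0.41 for SNAP25 (edgeR padj = 0.264) and 0.34 for STMN2 (edgeR padj = 0.315). COL1A2, a fibrillar collagen gene and the sole identified marker of 5 for meninges and fibroblasts, rose in G3D, against Control (log2 fold change 1.09, edgeR padj = 0.0249), where 0.0286% of genes did, and against White (1.13, edgeR padj = 0.00841), where 1.68% did. It was between 36.0 and 62.5 CPM in Green, 52.9 and 91.3 CPM in G3D, 29.6 and 34.5 CPM in White, and 29.0 and 40.0 CPM in Control. The part of SST, AGRP and COL1A2 in the low values of XPOT, OSBPL2 and ZDHHC7 in G3D was not tested.

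The genes with a symbol whose log2 CPM followed each of the 3 most closely over the 15 libraries were found by Pearson's r, as a description without a test, since the libraries share the groups that chose the genes. XPOT was followed by SACM1L, a phosphoinositide phosphatase (r = 0.95), UBE2D3, a ubiquitin-conjugating enzyme (r = 0.92), and KIF2A, a microtubule-depolymerising kinesin (r = 0.91). SACM1L and UBE2D3 were the closest and second closest of all genes tested, named or not, and KIF2A stood at position 7. OSBPL2 was followed by SNAP29, a SNARE protein of membrane fusion (r = 0.94), the kinase gene WEE1 (r = 0.94) and SESTD1, a phospholipid-binding protein (r = 0.93). ZDHHC7 was followed less closely, by SLC37A4, a glucose-6-phosphate transporter (r = 0.83), OSBPL2 itself (r = 0.83) and VPS50, a subunit of an endosomal tethering complex (r = 0.83). Among all genes tested, SNAP29, WEE1 and SESTD1 stood at positions 1, 3 and 4 for OSBPL2. For ZDHHC7, SLC37A4, OSBPL2 and VPS50 stood at 11, 12 and 13, so that genes without a symbol followed it more closely. XPOT and OSBPL2 had r = 0.89 with each other, and XPOT and ZDHHC7 0.79. Once each library was taken as its deviation from its group mean, r was 0.29 for XPOT and OSBPL2, -0.11 for XPOT and ZDHHC7 and 0.22 for OSBPL2 and ZDHHC7, so that the pooled values describe the differences between groups.

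SACM1L had the same order of group means as XPOT, at lower levels. It was at 4.07 ± 0.586 CPM in Green (SD, n = 3), 2.54 ± 0.829 CPM in G3D (SD, n = 4), 15.9 ± 4.54 CPM in White (SD, n = 4) and 9.66 ± 7.90 CPM in Control (SD, n = 4). WEE1 was at 2.43 ± 0.978 CPM in Green (SD, n = 3), 2.35 ± 0.680 CPM in G3D (SD, n = 4), 6.13 ± 2.68 CPM in White (SD, n = 4) and 5.26 ± 1.07 CPM in Control (SD, n = 4). SLC37A4 was at 38.1 ± 2.77 CPM in Green (SD, n = 3), 40.1 ± 4.87 CPM in G3D (SD, n = 4), 56.5 ± 4.46 CPM in White (SD, n = 4) and 54.6 ± 1.46 CPM in Control (SD, n = 4), a smaller difference than that of ZDHHC7. Each of these genes had both green regimes below both other groups by their means, which follows largely from how they were found. Only genes that the study had listed as different from Control were searched, for likeness to genes chosen as low in Green. With Spearman's rank correlation in place of Pearson's, 1 of the 3 genes named for XPOT remained among its closest 3, and 0 of 3 for OSBPL2 and for ZDHHC7.

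**Figure D4:**
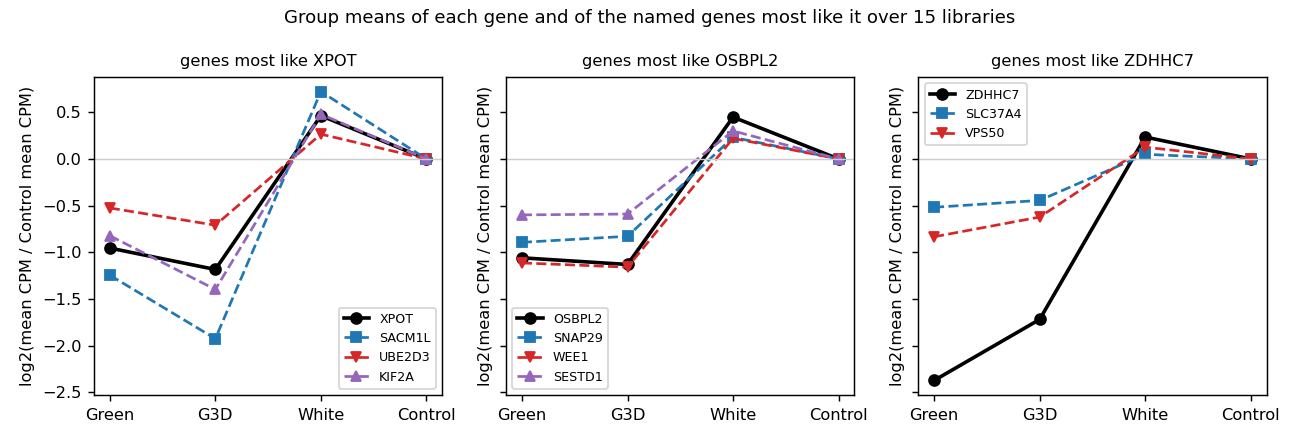
Group means of XPOT, OSBPL2 and ZDHHC7 (black) and of the named genes most like each (coloured), as log2 of mean CPM over the Control mean (vertical axis), for Green, G3D, White and Control. All lines lie below 0 in Green and G3D and above 0 in White, and the lines of SLC37A4 and VPS50 fall less than that of ZDHHC7.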

How the data were processed

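Hypothalamic RNA of 15 chicks was profiled by bulk MARS-Seq. The authors removed adapters (Cutadapt), aligned reads to 3′ UTR regions with STAR (GRCg6a in the submitters' notes), marked duplicates by gene and molecular identifier and used HTSeq for counting. The deposited values are raw counts without normalization, for 24356 Ensembl genes, and the depth of a sample is their total. A gene was named only where the study's supplementary table pairs its identifier with a symbol (568 identifiers). The fold changes and p-values of that table were not used. Replicates are separate chicks by the study's methods, and no batch is given.

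Differences were fitted with edgeR 4.0.16 (R 4.3.3) by robust quasi-likelihood on all 15 libraries after filterByExpr and TMM scaling, with 6 tested comparisons, Benjamini-Hochberg adjustment and a threshold of 0.05. Intervals are 95% from the fitted standard error. Log2 CPM carried a prior count of 2, and single genes were also compared on it by exact permutation. The genes and gene lists were chosen with earlier results of these data known. Genes named beyond the 3 were relatives listed by name, list members that passed the test or lay at either end in G3D against Control, and the 3 most correlated genes with a symbol. Other tools tried were DESeq2 1.42.0, which the study had used to list genes against Control, and voom from limma 3.58.1. Within edgeR, the scaling was changed to DESeq2's size factors, the filter was dropped or raised to a minimum of 10 counts per library, the fit was limited to the groups compared, the robust option was turned off, replicate numbers entered as a block, and libraries were left out in turn. The code was tested on simulated data.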

Additional observations from a re-analysis of the deposited data

How the results depend on the processing

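The direction of XPOT, OSBPL2 and ZDHHC7 held under every alternative run in White, Green and G3D against Control and in G3D against White. OSBPL2 in G3D against Green, near 0, reversed to a log2 fold change of 0.031 with the replicate number as a block and 0.11 without Green replicate 7. Against Control, DESeq2 brought the log2 fold changes of -1.18 (XPOT), -1.13 (OSBPL2) and -1.68 (ZDHHC7) in G3D under a padj of 0.05. It did the same for -2.37 (ZDHHC7) in Green. As the study had listed these genes with DESeq2, its calls are not separate evidence. Without a filter, edgeR did so for -1.18 (XPOT) and -1.13 (OSBPL2) in G3D and -2.35 (ZDHHC7) in Green. ZDHHC7 had under 10 counts in some libraries and gave no value under the stricter filter. Correlations of the deviations of same-numbered libraries lay within the range of other pairs (-0.10 to 0.12, against -0.18 to 0.20). Of 8 same-numbered pairs 1 was above 0.1, a share not taken for the other pairs. So few pairs cannot decide whether the numbers pair libraries. With the number as a replicate block, OSBPL2 and ZDHHC7 in G3D against White had log2 fold changes of -1.28 (edgeR padj = 0.050) and -1.85 (edgeR padj = 0.0710), and XPOT kept its call. Against Control the block gave edgeR padj of 0.859 (XPOT), 0.689 (OSBPL2) and 0.859 (ZDHHC7) in G3D. For ZDHHC7 in Green against Control its log2 fold change was -1.75. A library whose number no other library shared added nothing to the comparisons under the block. Green then rested on replicate 7 alone and Control on replicates 5 and 6. A padj above 0.05 under the block therefore cannot tell a lost difference from a lack of libraries.

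Counts of genes at a padj under 0.05 moved more. G3D against Control had 10 genes, and 213 with DESeq2, 4 with limma-voom, 30 without a filter and 3 with the block. G3D against White had 437, and 988 with DESeq2, 115 with the block and 130 with only both groups fitted. White against Control had 0, and 2 with DESeq2, 1 without a filter and 4 with the block. Green against Control had 0, and 23 with DESeq2, 3 without a filter and 1 with only both groups fitted. G3D against Green and the midpoint comparison had 0, and 2 each with DESeq2, with 1 for the midpoint without a filter.

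Leaving out 1 library gave log2 fold changes in G3D against Control of -1.27 to -0.94 for XPOT, -1.19 to -1.05 for OSBPL2 and -1.90 to -1.0 for ZDHHC7, and in G3D against White of -1.72 to -1.53, -1.79 to -1.39 and -2.10 to -1.76. In G3D against Green OSBPL2 ranged from -0.26 to 0.11. The position of Control for ZDHHC7 ranged from 64.5% to 99.1%. The number of genes was 1 to 221 in G3D against Control (221 without G3D replicate 5, 1 without Control replicate 6 or 8 or G3D replicate 7, 3 without Control replicate 5 or G3D replicate 1, 4 without G3D replicate 6), 38 to 1028 in G3D against White (64 without White replicate 3, 38 without White replicate 7, 51 and 63 without G3D replicates 1 and 6, 1028 without G3D replicate 5) and 0 to 1 in the other comparisons. Depth limits ZDHHC7 most, at 6 to 24 counts in each Green and G3D library.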

Other observations

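The highest Control library stood well above the other 3 for 2 of the genes. For XPOT the gap of Control replicate 4 to the next library was 0.822 of the group's range, and for ZDHHC7 that of Control replicate 8 was 0.771. For OSBPL2 the largest gap in Control was 0.401 of the range. All were below the critical value of 0.829 of Dixon's test for 4 libraries. With 4 libraries, values just below it do not show that replicates 4 and 8 belong with the others. The highest library was not the same for XPOT and ZDHHC7.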
